A study of Mus musculus with 10 samples.

Results

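The genes described here are Trp53, which encodes the transcription factor p53, and 9 genes of its network: Cdkn1a, Mdm2, Ccng1, Phlda3, Bax, Bbc3, Gadd45a, Trp53inp1 and Cdkn2a. All probes that the scanner files assign to these symbols were taken, which gave 14 probes for the 10 genes, out of 41173 probes and 27669 genes tested. Each probe was well above background in the lung channel on 10 of 10 arrays. The lungs came from female BALB/c mice, an inbred laboratory strain, aged 6 to 8 weeks on arrival. A group of 5 mice inhaled mainstream smoke from 12 filterless 3R4F reference cigarettes in each of 2 daily exposures of 50 minutes, 5 days per week for 8 weeks, and a group of 5 breathed room air. The RNA of each whole lung was measured on 1 array of a 2-colour Agilent platform.

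In unstressed cells p53 is kept scarce by Mdm2, a ubiquitin ligase that marks it for degradation. When DNA is damaged, sensor kinases release p53 from this control, and it switches on genes that stop the cell cycle, repair DNA or start apoptosis, together with Mdm2 itself. Cigarette smoke contains carcinogens that form DNA adducts and oxidants that break DNA. Much of p53 control acts on protein stability, so the mRNA of Trp53 is not a measure of its activity.

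A level is given as the log2 ratio of lung signal (red) over the signal of a common reference (green), and a difference is smoke minus room air. The labels name 1 dye, so the colours were told apart by their content: for the Y-linked Ddx3y the log2 green signal averaged 9.92 ± 0.43 (SD, n = 10) and the red signal 2.97, and Ager, a gene of the alveolar epithelium, was higher in red by 4.83. Red was therefore read as the female lung. Every sign rests on that reading and on the assignment of scanner files to mice. In the authors' table of processed values the groups are exchanged. Under the assignment used, Gdf15 and 9 of 9 macrophage markers were higher with smoke, 7 of the 9 at an adjusted p under 0.05 in limma. The paper lists Gdf15 as raised in exposed mice. That list was made from these arrays, so it is no separate check of the labels. In whole lung, fewer cells of a type and less RNA per cell cannot be told apart. In red, 67.8 to 76.7% of spots were well above background in the room air group and 64.9 to 77.5% in the smoke group. Each group had 5 arrays, and what limits precision was not tested.

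After 8 weeks of smoke, 0 of the 10 genes passed the threshold of an adjusted p under 0.05 in limma, a linear model fitted over all probes, whereas 8.22% of all genes did (2275 of 27669) and 7.06% of all probes. The probe with the highest mean red signal stood for each gene. At an unadjusted p under 0.05 there was 1 of the 10 genes, Cdkn2a, and 3 of the 14 probes, where 18.2% of all probes reached that level. The count of genes was 0 with red alone, without room air replicate 3 and without any 1 of the smoke arrays. It was 2 without room air replicate 1 and also without room air replicate 2. The exact two-sided Wilcoxon test, whose smallest possible p here is 0.00794, called 0 probes in the whole series after adjustment, and at an unadjusted p under 0.05 it gave 0 of the 10 genes and 1 of the 14 probes, against 13.2% of all probes. In 0 of the 14 probes did the arrays of the groups stay apart, against 6.89% of all probes. The median difference of the 10 genes was 0.016, beside -0.0042 over all genes, and 6 of the 10 were above 0.

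The intervals differed widely in what they allow. For the brightest probes of Mdm2, Phlda3, Trp53, Trp53inp1 and Ccng1, the 95% interval of the difference lay between -0.21 and 0.21, so that a fold change outside 0.863 to 1.15 was not within it. This holds for those probes only. The intervals of the other probes reached 1.33-fold for Trp53, 1.30-fold for Ccng1, 1.22-fold for Mdm2 and 0.73-fold to 1.33-fold for Trp53inp1. For Cdkn1a the 95% interval ran from -1.10 to 0.13, or from 0.466-fold to 1.10-fold. Each slide carried 1 smoke and 1 room air array, those with equal replicate numbers. In a limma fit with the slide as a further term (the fit by slide), 12.2% of all probes passed the threshold, and 0 of the 10 genes, with 3 of the 10 at an unadjusted p under 0.05, where 26% of all genes were.

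**Figure D1:**
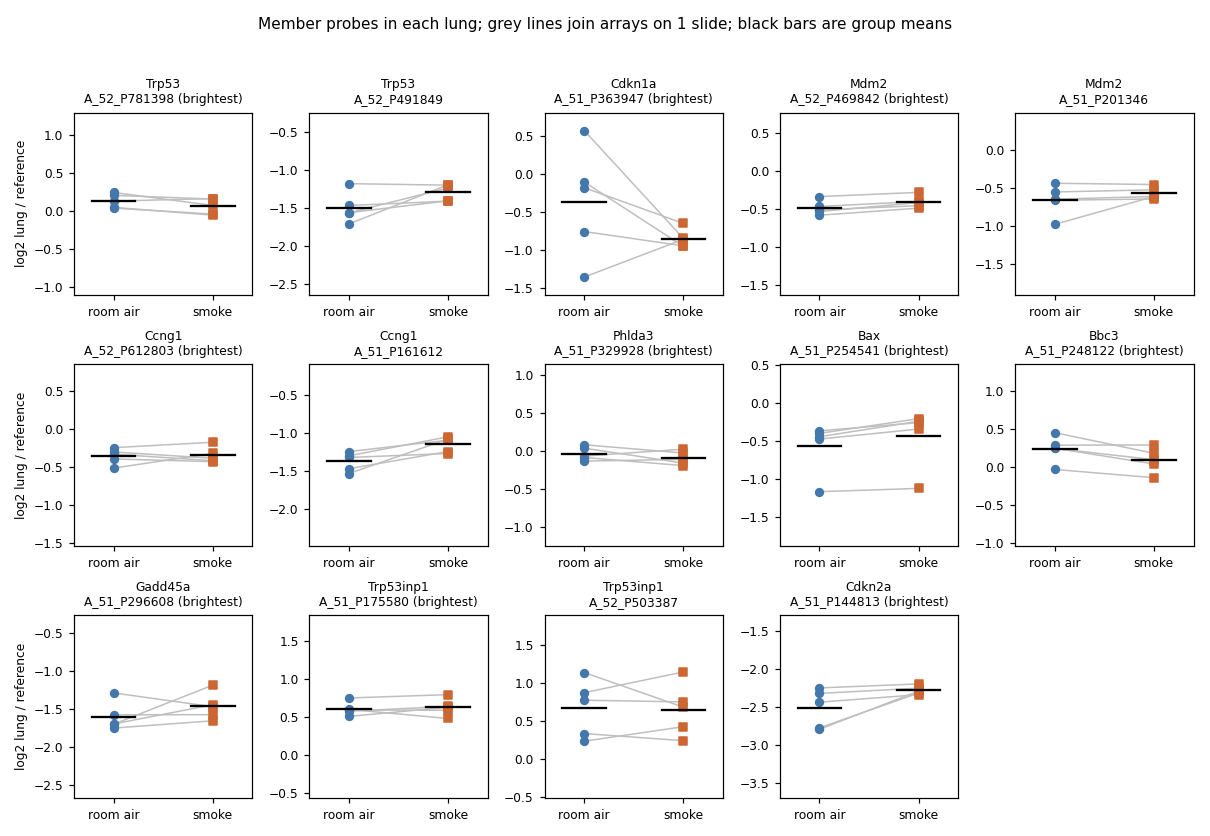
The log2 ratio of lung over reference for each of the 14 probes is plotted for 5 room air lungs (circles) and 5 smoke-exposed lungs (squares), with grey lines joining the arrays of 1 slide and black bars at the group means. Cdkn1a shows the widest room air group, from -1.36 to 0.57, and Bax has 1 low array in each group, both from the same slide.

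**Figure D2:**
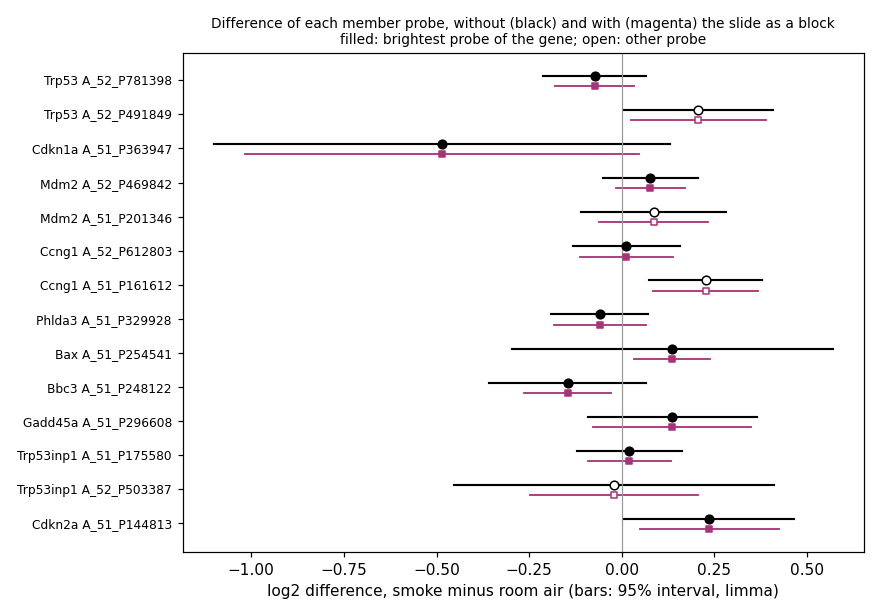
The difference between smoke and room air (log2) is shown for each probe with its 95% interval from limma, in black without the slide and in magenta with the slide in the fit; filled symbols are the brightest probe of a gene. The interval of Cdkn1a is the widest in the fit without the slide, and that of Bax narrows from between -0.30 and 0.57 to between 0.033 and 0.24 with it.

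Trp53 was read by a pair of probes. The brightest, A_52_P781398, had ratios of 0.21, 0.24, 0.13, 0.039 and 0.049 in room air replicates 1 to 5 and of 0.16, 0.075, 0.16, -0.039 and -0.053 in smoke replicates 1 to 5. The groups overlapped over most of their range, and the smoke array was the higher one on 1 of 5 slides. The difference was -0.073 (SE 0.063, 95% interval -0.21 to 0.066, adjusted p = 0.663, limma). It was -0.19 with median centring, -0.045 without smoke replicate 5 and 0.067 with the mean of both probes.

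The other Trp53 probe, A_52_P491849, lies in the coding sequence at chr11:69671206-69671265 (mm7, plus strand) and is shown because its difference had the opposite sign.
A_52_P491849: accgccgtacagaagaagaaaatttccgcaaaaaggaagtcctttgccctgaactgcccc
Its ratios were -1.46, -1.56, -1.71, -1.18 and -1.56 with room air and -1.41, -1.23, -1.19, -1.20 and -1.40 with smoke. A single room air lung, replicate 4, lay above every smoke lung, and the other 4 were below all smoke lungs. The difference was 0.21 (95% interval 0.0048 to 0.41, adjusted p = 0.261), and without room air replicate 4 it was 0.29 with an adjusted p of 0.0383 in limma. Over all alternatives the adjusted p of this probe ran from 0.0383 to 0.940. The probes of Trp53 thus disagreed in sign, and neither passed the threshold over all 10 arrays.

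Mdm2, the ligase that both restrains p53 and is induced by it, was also read by a pair of probes. The brightest, A_52_P469842, gave -0.33, -0.53, -0.51, -0.46 and -0.58 with room air and -0.28, -0.41, -0.45, -0.40 and -0.48 with smoke. Smoke was higher on 5 of 5 slides, by 0.055, 0.12, 0.056, 0.065 and 0.093, while the groups as a whole overlapped. The difference of 0.077 had a 95% interval of -0.050 to 0.21 (adjusted p = 0.592), or -0.015 to 0.17 in the fit by slide (adjusted p = 0.298). Leaving out 1 array gave 0.046 to 0.11, lowest without smoke replicate 1. The coding probe A_51_P201346, at chr10:117204040-117204099 (mm7, minus strand), is shown to mark which stretch of the transcript was read.
A_51_P201346: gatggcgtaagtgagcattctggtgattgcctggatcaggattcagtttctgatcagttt
It gave a difference of 0.086 (95% interval -0.11 to 0.28), with room air replicate 1 at -0.98 and the other 9 lungs between -0.66 and -0.44. Without that lung the difference was 0.0052, and it was 0.14 without room air replicate 5. With median centring in place of loess, both Mdm2 differences were below 0, at -0.031 and -0.029.

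Cdkn1a encodes p21, the inhibitor of cyclin-dependent kinases through which p53 arrests cells in G1, and it is the best known of the p53 targets. In the RefSeq promoter windows of mouse build GRCm38.p6, which run from 250 bases before to 50 bases after a start site, the upstream of its 2 windows holds 2 copies of the p53 half-site separated by 12 bases. The stretch is at chr17:29090892-29090951 on the plus strand, with both half-sites in capitals, and they span positions -73 to -42 from the start site.
Cdkn1a: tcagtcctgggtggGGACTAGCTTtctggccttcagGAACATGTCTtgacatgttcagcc
The 10 bases that follow the downstream half-site match the half-site motif at 9 of 10 positions. Of 32851 windows, 24 (0.0731%) hold 2 half-sites at most 13 bases apart, and 2745 (8.36%) hold at least 1. The half-site reads the same on both strands, so a single search covers both. Windows were present for 9 of the 10 genes, all but Trp53inp1, and 6 of the 9 hold a half-site. The other 5 are shown with the half-site in capitals, in GRCm38.p6, and such a match is a description of letters only.
Trp53, chr11:69580274-69580303, plus strand: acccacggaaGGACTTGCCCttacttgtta
Mdm2, chr10:117710925-117710954, minus strand: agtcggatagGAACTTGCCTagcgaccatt
Ccng1, chr11:40755452-40755481, minus strand: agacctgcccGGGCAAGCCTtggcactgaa
Bax, chr7:45467080-45467109, minus strand: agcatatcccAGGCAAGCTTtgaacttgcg
Gadd45a, chr6:67037428-67037457, minus strand: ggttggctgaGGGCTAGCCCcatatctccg

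The ratios of Cdkn1a were 0.57, -0.10, -0.76, -0.18 and -1.36 in room air replicates 1 to 5, and -0.85, -0.95, -0.95, -0.65 and -0.86 in smoke replicates 1 to 5. The smoke-exposed lungs were close together and the room air lungs spread above and below them, so 3 room air lungs were higher than every smoke lung and 1 was lower than all. The room air mean was -0.37 ± 0.73 (SD, n = 5), and the smoke mean was -0.85 ± 0.12. The difference of -0.49 (SE 0.28, adjusted p = 0.434, limma) had a 95% interval of -1.10 to 0.13, and of -1.02 to 0.047 in the fit by slide (adjusted p = 0.252). It was -0.25 without room air replicate 1 and -0.73 without room air replicate 5, with adjusted p of 0.656 and 0.0716, the latter the lowest of its alternatives.

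On slides 1 to 5 the difference was -1.42, -0.85, -0.19, -0.47 and 0.50, lower with smoke on all but the slide of replicate 5. Of all probes, 0.469% had a room air SD as large as that of Cdkn1a, and 33.6% had a smoke SD as large. Up to 10 spots per array carry this probe, and the SD between spots of an array was 0.046 to 0.12 (median 0.075), with 8 to 10 spots kept. This SD holds no labelling error and no error between arrays, so the spread between lungs and that between hybridisations cannot be told apart.

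The signals of both colours varied between arrays. Scaled to the 75th percentile of each array, the log2 red signal of Cdkn1a was 1.45, 1.53, 0.74, 1.77 and 0.73 with room air, and the green signal was 1.07, 1.82, 1.69, 2.10 and 2.33. The lowest green value thus stood on the array with the highest ratio and the highest green value on the array with the lowest ratio. In the smoke group red ran from 0.47 to 1.21 and green from 1.64 to 2.30. The part of the reference signal in this spread was not tested. Room air replicate 1, the highest for Cdkn1a, also stood apart in the neutrophil markers, with a mean ratio of 3.78 against 1.93 to 2.36 in the other room air lungs. In that lung Gadd45g was at 1.32 and Gadd45b at 0.92, both named after their values were seen, and the other room air lungs were at most at -0.065 and 0.18. The part of these in the Cdkn1a value was not tested.

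**Figure D3:**
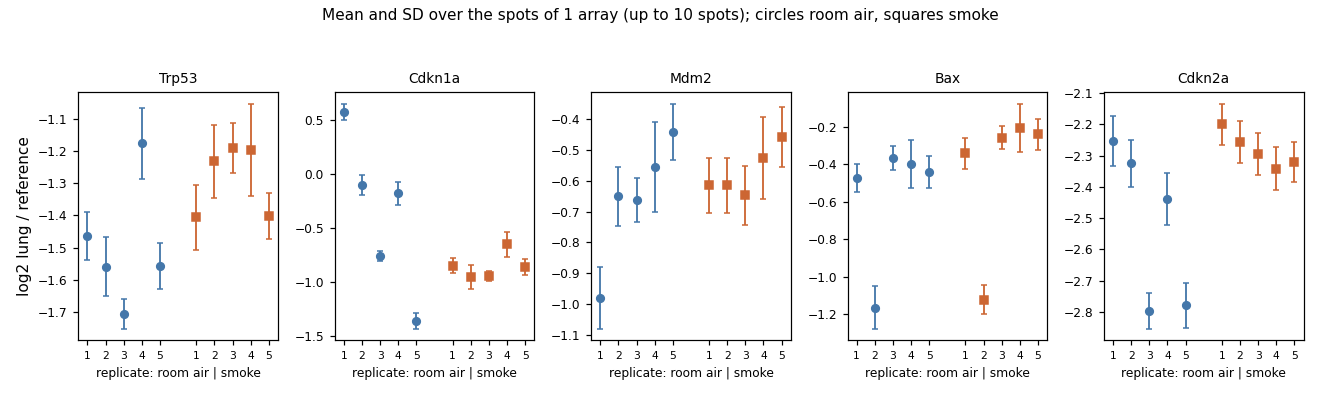
For the 5 genes whose probe is printed up to 10 times on an array, the mean and SD of the log2 ratio over the spots of 1 array are plotted for room air replicates 1 to 5 (circles) and smoke replicates 1 to 5 (squares); the vertical scale differs between panels. The spot SD holds the error within 1 array only, and both arrays of replicate 2 are low for Bax.

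For a pattern like that of Cdkn1a, 22555 probes well above background in red on all 10 arrays were searched. The probe of Cdkn1a and probes with clone names were left out before that count. The genes with the pattern most like that of Cdkn1a over the 10 arrays were taken from those 22555 probes. They were Zfp868, a zinc finger gene (Pearson r = 0.973), Snhg5, a host gene of small nucleolar RNAs (0.973), and Dctn4, a subunit of the dynactin motor complex (0.963). Spearman's rho was 0.952, 0.782 and 0.939. These values are descriptions, since the genes were chosen for the highest r. Without the 2 arrays farthest from the median of Cdkn1a, room air replicates 1 and 2, r was 0.932, 0.953 and 0.914. The smoke-exposed lungs alone are too few for a correlation, and among them Zfp868 and Dctn4 were highest in replicate 4, as was Cdkn1a, while Snhg5 was between -1.36 and -1.30 and at -1.31 in that replicate. For each of the 3 genes the differences were not past the threshold, with adjusted p of 0.614, 0.629 and 0.306 in limma.

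**Figure D4:**
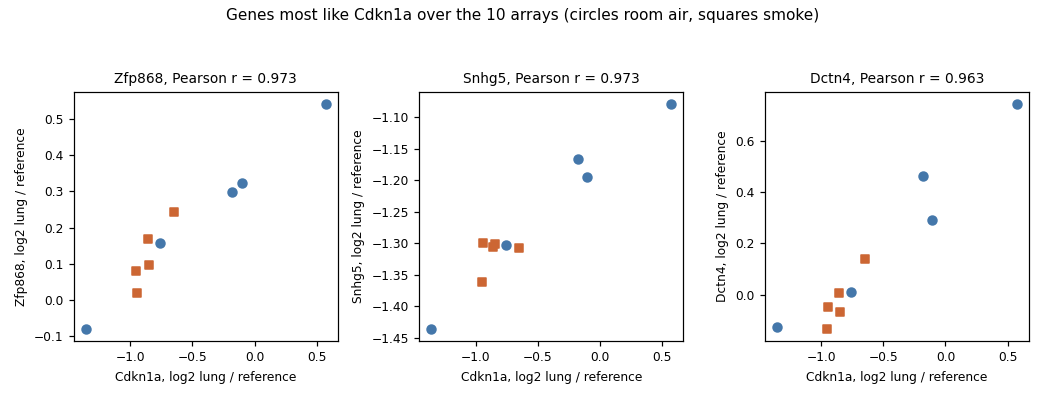
The log2 ratio of Zfp868, Snhg5 and Dctn4 is plotted against that of Cdkn1a for the 10 arrays, with room air as circles and smoke as squares. In each panel the room air lungs spread more widely than the smoke-exposed lungs, which stay in the lower part.

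Ccng1 encodes cyclin G1, a p53 target that recruits a phosphatase to Mdm2. Its brightest probe, A_52_P612803, gave -0.33, -0.24, -0.39, -0.51 and -0.30 with room air and -0.41, -0.17, -0.43, -0.32 and -0.38 with smoke, and the groups covered nearly the same range. The difference was 0.012 (95% interval -0.13 to 0.16, adjusted p = 0.965). The dimmer coding probe A_51_P161612, at chr11:40693768-40693827 (mm7, minus strand), came closest to the threshold of the 14 and is shown for that.
A_51_P161612: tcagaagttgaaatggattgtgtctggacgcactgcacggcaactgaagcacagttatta
It gave -1.32, -1.30, -1.53, -1.47 and -1.24 with room air and -1.27, -1.05, -1.08, -1.24 and -1.09 with smoke. Smoke was higher on 5 of 5 slides, and the groups met only where smoke replicate 1 lay below room air replicate 5. The difference was 0.23 (SE 0.069, 95% interval 0.074 to 0.38, adjusted p = 0.0822), and the adjusted p was 0.0506 in the fit by slide. Over the alternatives the adjusted p ran from 0.0506 to 0.639, the highest with median centring, where the difference was 0.12. The probes of Ccng1 therefore disagreed in size.

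Phlda3, a p53-induced inhibitor of Akt signalling, ranged from -0.14 to 0.079 with room air and from -0.19 to 0.021 with smoke. The difference was -0.059 (95% interval -0.19 to 0.071, adjusted p = 0.726), and -0.088 to -0.030 with 1 array left out, nearest 0 without room air replicate 3. Gadd45a, a stress protein that acts in growth arrest and DNA repair, was -1.29, -1.76, -1.70, -1.58 and -1.71 with room air and -1.48, -1.66, -1.45, -1.58 and -1.19 with smoke. Its groups overlapped, with a difference of 0.14 (95% interval -0.091 to 0.36, adjusted p = 0.598). Leaving out room air replicate 1 gave 0.22, and leaving out smoke replicate 5 gave 0.067.

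Trp53inp1 encodes a nuclear protein that promotes p53-dependent apoptosis and autophagy. Its brightest probe, A_51_P175580, ranged from 0.51 to 0.76 with room air and from 0.49 to 0.80 with smoke, a difference of 0.020 (95% interval -0.12 to 0.16, adjusted p = 0.936). The other probe, A_52_P503387, is built from a 26-base unit in tandem, with 1 mismatch over the 34 bases compared, and the unit is shown because such a repeat can pair with other repeats.
A_52_P503387, repeat unit: AGTACTAATACTTACCACAGCAGGCG
Its ratios were 1.14, 0.87, 0.77, 0.24 and 0.34 with room air and 0.68, 1.15, 0.75, 0.43 and 0.24 with smoke. Replicates 4 and 5 were the lowest in both groups, and the difference was -0.021 (95% interval -0.45 to 0.41).

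Bax encodes the pore-forming protein that permeabilises mitochondria in apoptosis. Its probe covers 156 bases at chr7:41641827-41641982 (mm7, minus strand), 96 more than its own 60, so it crosses an intron and reads spliced RNA.
A_51_P254541: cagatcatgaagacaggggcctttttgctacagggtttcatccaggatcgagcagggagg
The ratios were -0.47, -1.17, -0.37, -0.40 and -0.44 with room air and -0.34, -1.12, -0.26, -0.21 and -0.24 with smoke. Both arrays of replicate 2 were low and shared a slide, and among the other slides the smoke values were all above the room air values. Their low ratio came from red, which was 0.63 with room air and 0.78 with smoke on that slide and 1.26 to 1.71 on the others, while green was 2.03 and 2.13 there, within the range of the others.

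The difference for Bax was 0.14 (SE 0.20, 95% interval -0.30 to 0.57, adjusted p = 0.834). Within slides 1 to 5 it was 0.13, 0.043, 0.11, 0.19 and 0.20, higher with smoke on 5 of 5. Without room air replicate 2 the difference was -0.013 and without smoke replicate 2 it was 0.31. In the fit by slide the interval was 0.033 to 0.24 and the adjusted p 0.0945. Bbc3, also called Puma, encodes a BH3-only protein that frees Bax from its inhibitors. Its ratios were 0.29, -0.030, 0.45, 0.25 and 0.25 with room air and 0.29, -0.14, 0.18, 0.042 and 0.098 with smoke. Smoke was higher on 1 of 5 slides and replicate 2 was again lowest in both groups. The difference was -0.15 (95% interval -0.36 to 0.065, adjusted p = 0.514), or -0.26 to -0.028 in the fit by slide (adjusted p = 0.117). Leaving out room air replicate 2 gave -0.21, and leaving out smoke replicate 2 gave -0.088. Neither gene passed the threshold in the fit by slide.

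Cdkn2a gives rise to p16INK4a, an inhibitor of Cdk4 and Cdk6, and to p19ARF, which holds Mdm2 away from p53; it marks senescent cells. The array files assign its probe to transcripts of both proteins, so they cannot be told apart. The ratios were -2.25, -2.33, -2.80, -2.44 and -2.78 with room air and -2.20, -2.26, -2.29, -2.34 and -2.32 with smoke. Room air replicates 3, 4 and 5 were below all smoke lungs, and replicates 1 and 2 lay among them. Smoke was higher on 5 of 5 slides, by 0.053, 0.069, 0.50, 0.098 and 0.46. The difference of 0.24 (SE 0.10, 95% interval 0.0064 to 0.47) had an adjusted p of 0.258, and of 0.110 in the fit by slide. Over the alternatives the difference ran from 0.13 with median centring to 0.43 with red alone at the 75th percentile, and the adjusted p from 0.0684 to 0.676.

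Beyond these genes, 10 lists of the p53 network, DNA repair, the G1 phase and apoptosis held 208 measured genes, of which 27 passed the threshold, 21 higher and 6 lower with smoke. Of all genes, 4.95% passed as higher and 3.27% as lower. In counts over the lists and the cell markers, rose and fell mean past the threshold in that direction. The median difference of the 208 genes was 0.024. With the processed red signal alone, scaled to the 75th percentile, 16 passed, beside 4.27% of all probes. With median centring 10 passed, beside 3.48% of all probes, and the Wilcoxon test gave 0. At an unadjusted p under 0.05 limma gave 61, where 18.2% of all probes reached that level. These counts are of genes and the shares beside them are of probes. In limma over all 10 arrays 8.22% of all genes passed the threshold, and 7.06% of all probes. The genes of these lists that were named by rule kept the sign of their difference under all 20 alternatives. These were changes of the test or of the processing, and fits with an array left out. The fit by slide, the Wilcoxon test, the filter of dim probes and the quantile scaling between arrays leave each difference as it is. None of them could change a sign, so they do not test it. Those genes past the threshold had that sign on 5 of 5 slides, but they were chosen for large differences, so this is no separate test.

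Among 40 other p53 targets, 4 rose and 1 fell, with a median of 0.028. Gdf15, a stress-induced cytokine of the TGF-beta superfamily, was -1.62, -1.69, -1.64, -1.43 and -1.65 with room air and -0.44, -0.40, -0.68, -0.45 and -0.63 with smoke. Every smoke lung was above every room air lung, a 2.12-fold rise (log2 difference 1.08, SE 0.071, adjusted p = 6.22e-06, limma). Epha2, a receptor tyrosine kinase, was 0.31, 0.32, 0.36, 0.079 and 0.26 with room air and -0.29, -0.33, -0.58, -0.49 and -0.48 with smoke, and it fell by 0.70 without overlap (adjusted p = 0.000154). Psrc1, a spindle-associated protein, rose by 0.52 and Tigar, a fructose bisphosphatase that lowers glycolysis, by 0.35, and over the alternatives they ran from 0.34 to 0.68 and from 0.25 to 0.53. Tigar was not past the threshold with median centring or with red alone, with adjusted p up to 0.211. In the fit by slide 8 of the 40 passed, 5 higher and 3 lower, where 12.2% of all probes passed.

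Of 23 regulators of p53, 1 passed. Trp53bp2, which encodes ASPP2, a protein that steers p53 to apoptotic genes, fell by 0.29 (SE 0.076, adjusted p = 0.0412), and the list median was -0.079. Its call was lost without room air replicate 2, 3, 4 or 5 or without smoke replicate 1, 3 or 5. There the difference was -0.28 to -0.31 and the adjusted p reached 0.101, with 0.0161 to 0.453 over all alternatives. Of its 20 alternatives 11 ended the call, and the highest adjusted p came from a change of the processing, not from a left-out array. In the fit by slide 2 of the 23 passed, 1 in each direction, beside 12.2% of all probes. Of 22 damage sensing and checkpoint genes, 3 rose and 0 fell: Cdc25b, a phosphatase that triggers mitosis (0.49, adjusted p = 0.00185), H2ax, the histone variant phosphorylated at DNA breaks (0.30), and Mre11a, a nuclease of the complex that senses breaks (0.22, adjusted p = 0.0255). Mre11a was not past the threshold without room air replicate 2 or 3 or without smoke replicate 1, 3 or 5, with adjusted p up to 0.0691 and a difference of at least 0.19, and the mean of its probes gave 0.12. With median centring the adjusted p was 0.240 for Cdc25b, 0.407 for H2ax and 0.813 for Mre11a, and with red alone H2ax and Mre11a were not past the threshold either. In the fit by slide 4 of the 22 passed, all higher, beside the same 12.2% of all probes. Atr and Mdc1 were not matched to a probe.

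Differences between the repair pathways were not tested. Of 33 genes of break and crosslink repair, 5 rose and 2 fell, with a median of 0.11. In the fit by slide 9 passed, 7 higher and 2 lower, where 12.2% of all probes passed. Exo1, a nuclease that resects DNA ends, was -4.37, -3.96, -4.16, -3.75 and -3.79 with room air and -3.31, -3.22, -3.33, -3.15 and -3.12 with smoke. Every smoke lung was above every room air lung, and the difference was 0.78 (SE 0.11, adjusted p = 0.00145). Fanci, of the Fanconi pathway, rose by 0.56 and Brca1, of homologous recombination, by 0.53; over the alternatives Fanci ran from 0.27 to 0.83 and Brca1 from 0.30 to 0.87, each lowest with the mean of all its probes. That mean gave Brca1 an adjusted p of 0.135, the highest over its alternatives, which began at 0.000962. Exo1 reached 1.23 with the scanner's own log ratio. With median centring the adjusted p was 0.0663 for Fanci and 0.0951 for Brca1. Fancf was not matched to a probe.

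Of 26 genes of base excision and direct repair, 4 rose and 0 fell, with a median of 0.045. In the fit by slide 5 passed, all higher, where 12.2% of all probes passed. Ung, the glycosylase that removes uracil, rose by 0.68 (SE 0.11, adjusted p = 0.00348), Neil3, a glycosylase for oxidised bases, by 0.63, Fen1, the flap nuclease that also matures Okazaki fragments, by 0.39, and Apex1, the abasic site nuclease, by 0.26 (adjusted p = 0.0309). Neil3 ran from 0.41 with the mean of its probes to 1.41 with the scanner's own log ratio. Without room air replicate 2 or 4, or without smoke replicate 1, 2, 3 or 5, Apex1 was not past the threshold, with differences of 0.22 to 0.27 and adjusted p up to 0.0765. Ung, Fen1 and Apex1 were not past it with median centring or with red alone, with adjusted p up to 0.0662, 0.384 and 0.670. Of 22 genes of nucleotide excision repair, the pathway for bulky adducts, limma called 0 and gave 3 at an unadjusted p under 0.05, with a median of -0.0064. Ercc1, which encodes the partner of the XPF nuclease, had the smallest p, with a difference of -0.21 (adjusted p = 0.124), and an adjusted p of 0.0409 in the fit by slide, within a range of 0.0409 to 0.772 over all alternatives. The Wilcoxon test called 0 probes in the whole series, so its 0 here and for the other lists adds nothing. In limma 1 of the 22 passed without smoke replicate 2. Of 7 mismatch repair genes limma and the Wilcoxon test called 0, with 0 in limma at an unadjusted p under 0.05, and Pms1 had a difference of 0.14 (95% interval -0.077 to 0.35, adjusted p = 0.565).

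Markers of dividing cells and of macrophages were higher with smoke as well. Of 10 markers of dividing cells 10 were higher with smoke and 9 rose, with a median of 0.64, and Mcm6 was the brightest. Their mean ratio was -3.80, -3.53, -3.78, -3.52 and -3.41 in room air lungs and -2.97, -2.83, -2.84, -2.82 and -2.78 in smoke-exposed lungs, without overlap. Of 9 macrophage markers 9 were higher with smoke and 7 rose, with a median of 1.34 and Chil3 the brightest. Their mean ratio was 2.02, 1.91, 1.95, 1.87 and 1.93 with room air and 3.25, 3.22, 3.41, 3.18 and 3.18 with smoke. Of the 10 and 9 markers measured, 9 and 9 were well above background in red on 10 of 10 arrays, and Ear2 was not matched to a probe. Their part in the differences of the repair genes, or of Gdf15, Psrc1, Cdc25b, H2ax, Ccne1 and E2f2, was not tested.

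Among the markers of other cells, limma called 0 of 6 for lung epithelium, 0 of 6 for neutrophils, 0 of 5 for B cells and 0 of 5 for T cells, with 0, 0, 0 and 1 at an unadjusted p under 0.05. The Wilcoxon test called 0 in each, and the fit by slide called 2 of the T cell markers, where 12.2% of all probes passed. The mean ratio of the neutrophil markers was 3.78 in room air replicate 1 and 1.93 to 2.36 in the other room air lungs. Of 4 endothelial markers 0 were higher with smoke, with a median of -0.21. Of the 4, 1 fell, Pecam1, named after its values were seen (difference -0.41, adjusted p = 0.0488, limma), and 2 passed in the fit by slide, both lower.

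Of 20 genes of the CDK inhibitors and the G1 phase, 2 rose and 1 fell. Ccne1, the cyclin that drives entry into S phase, was -2.22, -2.17, -2.15, -2.28 and -2.07 with room air and -1.51, -1.41, -1.45, -1.75 and -1.38 with smoke, without overlap (difference 0.67, SE 0.073, adjusted p = 0.000228). E2f2, a transcription factor of S phase genes, rose by 0.34, and Cdkn2b, which encodes p15INK4b beside Cdkn2a, fell by 0.38 (adjusted p = 0.0476). Cdkn2b was not past the threshold without room air replicate 3, 4 or 5 or smoke replicate 1, 2, 4 or 5, with differences of -0.32 to -0.40 and adjusted p up to 0.113. The scanner's own log ratio, median centring and red alone also ended its call, with adjusted p up to 0.250. E2f2 was not past the threshold without room air replicate 2, 4 or 5 or smoke replicate 1, 3, 4 or 5, with differences of 0.28 to 0.34 and adjusted p up to 0.109, nor with the scanner's own log ratio, median centring or red alone at the 75th percentile, with adjusted p up to 0.628. In the fit by slide 5 of the 20 passed, 3 higher and 2 lower, beside 12.2% of all probes.

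Of 15 genes of the BCL2 family, to which Bax and Bbc3 belong, 3 rose and 1 fell. In the fit by slide 4 passed as higher and 1 as lower, where 12.2% of all probes passed. Bmf, a BH3-only protein, was 1.73, 1.61, 1.68, 1.77 and 1.56 with room air and 2.66, 2.54, 2.53, 2.49 and 2.48 with smoke, a 1.83-fold rise with no overlap (log2 difference 0.87, adjusted p = 4.63e-06), and the mean of its probes gave 0.37. Bcl2a1b, an anti-apoptotic gene of leukocytes, was 5.02, 3.46, 3.58, 3.51 and 3.58 with room air and 5.42, 5.09, 5.34, 5.12 and 5.42 with smoke, so that room air replicate 1 came near the smoke values. Room air replicate 1 was also the room air lung with the highest mean of the neutrophil markers (3.78) and of the macrophage markers (2.02), and 7 of 9 macrophage markers rose with smoke. The part of either in the values of Bcl2a1b was not tested. Bcl2a1b rose by 1.45 (adjusted p = 0.00574), but near-identical copies of this gene exist, of which Bcl2a1a and Bcl2a1d were not matched, and the probe may read them too. Bok rose by 0.28 and Bcl2l2 fell by 0.30, while the mean of the Bcl2l2 probes gave -0.11. With median centring and with red alone at the 75th percentile neither was past the threshold, with adjusted p up to 0.604 for Bok and, over all its alternatives, 0.238 for Bcl2l2. Of 3 other genes of the Gadd45 list limma and the Wilcoxon test called 0, with 1 in limma at an unadjusted p under 0.05, Gadd45gip1, at 0.19 (adjusted p = 0.124). Without room air replicate 1, limma called 1 of the 3. Gadd45g was at 1.32 in that lung, at -0.40 to -0.065 in the other room air lungs and at 0.12 to 0.29 with smoke.

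**Figure D5:**
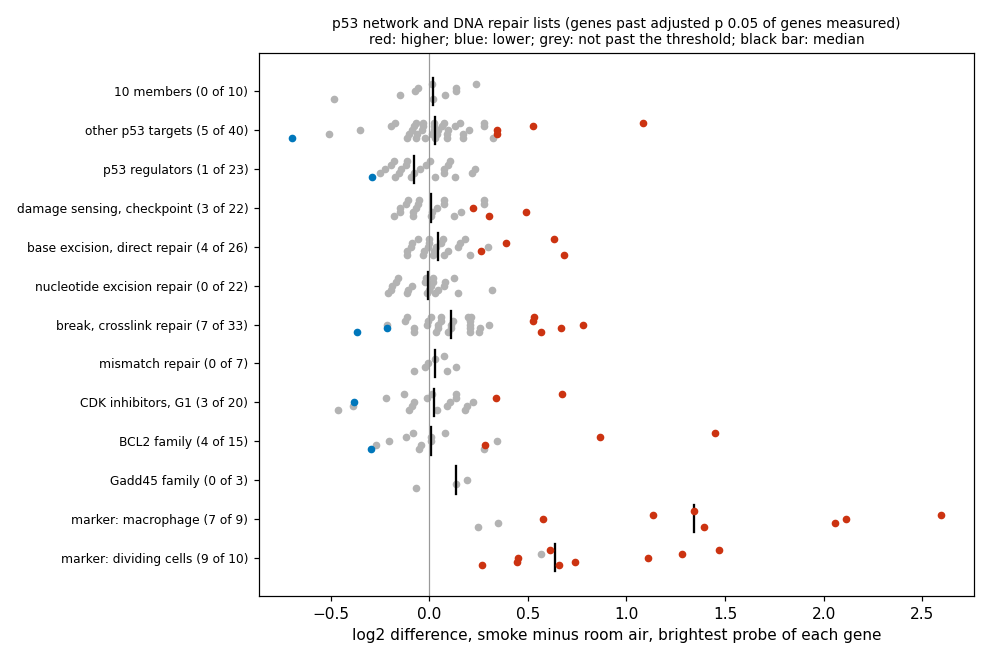
The difference between smoke and room air (log2, brightest probe of each gene) is plotted for every measured gene of each list, with genes past the threshold in red (higher) or blue (lower), the others in grey, and a black bar at the list median. None of the 10 members is coloured, while 9 of 10 markers of dividing cells and 7 of 9 macrophage markers are.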

How the data were processed

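Lung RNA of 5 smoke-exposed and 5 room air mice was measured, with 1 array per mouse. The authors deposited scanner output in which Agilent Feature Extraction (9.5.3.1 per the file headers, 9.1 in the submitters' processing notes) gives the intensity of each spot and its background in 2 channels, with 0 or 1 flags. The deposited log10 ratio of red over green is that software's own. The authors' deposited table of log2 values is the mean over both channels of median signal minus median background: all 286449 values equal, within 1e-04, those of the array of the same number in the other group (286 for the same name). Column medians were 7.34 to 8.06, and no direction is taken from it.

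Intensities were corrected by normexp (offset 50), which lowers the folds of dim probes, and normalized by loess within arrays with limma 3.58.1 in R 4.3.3; control spots and 83 to 144 outlier spots per array were left out, and a probe's spots were then averaged. Groups were compared with lmFit and eBayes, two-sided, with Benjamini-Hochberg adjustment over 41173 probes. All 14 member probes were named through their accession in the RefSeq table; of 41174 probes 22951 were. Probe coordinates are those of the files (mm7) and promoter windows are RefSeq's (GRCm38.p6). The steps were tested on simulated data.

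Per the file headers there were 5 slides, scanned on 4 days, with 1 array of each group per slide. Every smoke array lay at place 1 of its slide and every room air array at place 2. Smoke and place on the slide therefore cannot be told apart, in the fit by slide either. Deviations from the group means of arrays of the same number correlated at 0.157, 0.460, 0.461, 0.550 and 0.415, and those of different numbers at a median of -0.124 and at most 0.205, above the value of replicate 1. The slide was taken to pair the samples in the fit by slide only. The main limma fit holds no term for the slide, so its intervals and p leave that pairing out.

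The members and lists were chosen with earlier results of these data known. The text names the 10 members; per further list, up to 4 genes with the largest difference past the threshold (else the smallest p); and the 3 genes most correlated with Cdkn1a, taken as no member passed. Among the genes so chosen, 1 is not reported here. The paper's methods name Wilcoxon tests, run here as an alternative. Other alternatives changed the test, filter, background correction, normalization, channel, probe rule and block, or left out each array.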

Additional observations from a re-analysis of the deposited data

Results flagged for a closer look

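Among the 10 members and the named genes, in groups of 5 lungs, a lung whose gap to its nearest neighbour took up more than 0.71 of the group's range was looked for in 80 groups of values, and 7 were found; chance flags about 1 in 20 groups. For Bax, replicate 2 was far below the rest in both groups, at -1.17 with room air (next -0.47) and -1.12 with smoke (next -0.34), and these arrays share a slide. No other member had a lung past that limit. For Gdf15, room air replicate 4 was high at -1.43, still below all smoke lungs. Trp53bp2 was low in room air replicate 1, at 2.30, and Fanci in smoke replicate 1, at -2.88. Brca1 was high in smoke replicate 5, at -2.94. For Bcl2a1b, room air replicate 1 stood at 5.02 and the next room air lung at 3.58; without that lung the difference was 1.75 in place of 1.45. The reasons were not tested.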

How the results depend on the processing

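Under all 20 alternatives 0 of the 10 members passed the threshold. Single probes were counted under 19 of them, and of the 14 probes 1 passed, A_52_P491849 of Trp53, only without room air replicate 4. Probes called over the whole series numbered 2906, and 5019 with the replicate block, 0 with the Wilcoxon test, 1434 with median centring (47.9% of them higher, against 61.7%) and 1759 with red alone at the 75th percentile; leaving out 1 array gave 2102 to 3660. Of the 208 genes of the further lists 27 were called, and 0 with the Wilcoxon test, 10 with median centring, 16 with red alone at the 75th percentile and 20 to 31 with 1 array left out. The block called 39 there, beside 12.2% of all probes, and 0 of the members. Of the genes named by rule it changed the call of Ercc1 alone. The exact test cannot go below 0.00794 and the cause of the other shifts was not tested. Quantile scaling of the mean intensities leaves ratios as they are, so it gave the same values by construction.

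Differences that changed sign had adjusted p of 0.621 or more. With median centring that of Mdm2 was -0.031 and -0.029 (A_52_P469842 and A_51_P201346), of Ccng1 -0.095 (A_52_P612803) and of Trp53inp1 -0.081 (A_51_P175580). With the mean of all probes Trp53 was 0.067 and Trp53inp1 -0.00044. With 1 array left out the ranges were -0.030 to 0.040 for Ccng1 A_52_P612803, -0.022 to 0.057 for Trp53inp1 A_51_P175580, -0.15 to 0.095 for Trp53inp1 A_52_P503387 and -0.013 to 0.31 for Bax, lowest without room air replicate 2. Cdkn1a stayed below 0, from -0.73 to -0.25. All 14 probes were well above background in red on 10 of 10 arrays. With 5 arrays per group, the SE ran from 0.058 for Mdm2 A_52_P469842 to 0.28 for Cdkn1a. What sets this precision was not tested.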

Other observations

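Ddit4, an inhibitor of mTOR that p53 and other stress signals induce, was singled out after its values were seen. Its ratios were -1.41, -2.47, -0.64, -1.14 and -1.26 with room air and -2.04, -2.38, -1.15, -2.09 and -1.81 with smoke. The groups overlapped, replicate 2 was lowest and replicate 3 highest in both, and smoke was lower on 4 of 5 slides. The difference of -0.51 had an adjusted p of 0.470 in limma, and of 0.0373 in the fit by slide. Btg2, an antiproliferative p53 target also chosen after its values were seen, had a difference of -0.35 (adjusted p = 0.0585, and 0.0153 in that fit), lower on 5 of 5 slides. In the exact Wilcoxon test the adjusted p was 0.688 for Ddit4 and 0.165 for Btg2, and their differences under further alternatives are not given.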
